A study of Mus musculus with 5 samples.

Results

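The genes described here are 10 genes of contacts between cells: the cadherins Cdh2, Cdh3, Cdh11 and Cdh13, the connexins Gja1 (connexin 43) and Gjc1 (connexin 45), the immunoglobulin-type adhesion genes Ncam1, Alcam and Icam1, and the scaffold gene Tjp1 (ZO-1). They were found by symbol among the 55401 genes of the deposited table, and all 10 had 1 row each. RNA-seq was done on wild-type mouse bone marrow mesenchymal stem cells (BMSCs), plastic-adherent stromal cells able to give rise to osteoblasts, adipocytes and chondrocytes. Cells were grown for 72 h in flasks, and continuous negative pressure of -80, -120, -160 or -200 mmHg was held for 48 h, with a culture at 0 mmHg as the control. The strain, the number of animals and how many cultures went into a library are not given in the sources used here. With 1 library for each of the 5 conditions, differences have no replicate check and no p-value is given.

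Cadherins are membrane proteins that bind calcium and pair with cadherins on the next cell. Classical cadherins such as Cdh2, Cdh3 and Cdh11 hold the actin cytoskeleton through catenins, whereas Cdh13 is held in the membrane by a lipid anchor and has no catenin-binding tail. Connexins form channels that join the cytoplasm of neighbouring cells, and connexin 43 is the main one of bone-forming cells. Osteoblasts and their precursors are known to carry N-cadherin (Cdh2) and cadherin 11, also called OB-cadherin. Ncam1, Alcam and Icam1 bind cells through immunoglobulin domains, and ZO-1 links junction proteins, connexin 43 among them, to actin.

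Levels are FPKM (fragments per exon length and library size). The length is that of all annotated exons of a gene, so a comparison of levels between genes depends on that annotation. Differences are of log2(FPKM + 1), a scale that understates changes of low genes. A gene was measured when its mean over the 5 libraries was at least 1 FPKM, and it rose or fell at a pressure when it differed from the control by at least 1 on that scale. Read numbers were recovered from the FPKM values, and ratios of reads per library total have exact 95% Clopper-Pearson intervals, which cover counting error only. Library totals ran from 16600622 to 18398911 reads. The control library held 2493 reads of 4 Y-linked genes (Ddx3y, Eif2s3y, Kdm5d and Uty) and the pressure libraries held 0, so pressure and a different origin of the control cells cannot be told apart in any value against the control. Exon length also moved with this contrast: the median log2 difference of all measured genes, averaged over the pressures, was -0.18 for genes with 1000 to 2000 nt of exon and 0.36 for those with 8000 to 12000 nt. The members have 4360 to 11233 nt of exon, and their differences with the exon length trend removed are given with each.

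Of 12 stromal markers 10 were measured, with a summed level of 3476 FPKM in the control library and 1986 to 2251 FPKM in the pressure libraries. Most of that sum is Ly6a (Sca-1), which fell at all 4 pressures, from 1740 FPKM to between 622 and 828 FPKM, and Col1a1, which fell at 2 pressures, from 930 FPKM to between 435 and 564 FPKM over the 4. The list did not move one way: 5 of the 10 measured markers stood above the control at all 4 pressures and 5 below it. Thy1 (CD90) stood at 0.0181 FPKM in the control library and 1.001 to 1.83 FPKM in the pressure libraries and rose at 3 pressures, and Pdgfra stood at 44.3 FPKM and 63.7 to 71.5 FPKM. The leukocyte marker Ptprc reached at most 0.00605 FPKM, and the epithelial markers Epcam and Cdh1 were listed at 0 in all 5 libraries. Of 6 leukocyte markers 4 stayed under 0.1 FPKM in all libraries, as did 5 of 7 epithelial markers. Coro1a (leukocyte) stood at 1.37 FPKM in the control library and 0.0995 to 0.296 FPKM in the pressure libraries, and Cd53 (leukocyte) at 0.593 FPKM and 0.506 to 0.934 FPKM. Krt19 (epithelial) stood at 1.03 FPKM and 0.358 to 0.760 FPKM. Of 8 macrophage markers 2 were measured, Cd68 and Cd14, and both rose at all 4 pressures. Another 5 (Adgre1, Mrc1, Fcgr3, C1qa and C1qb) stayed under 0.1 FPKM in all libraries, with C1qa and C1qb listed at 0 throughout. Csf1r stood at 0.0941 FPKM in the control library and 0.366 to 0.427 FPKM in the pressure libraries.

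Promoter windows are shown for members that stood higher under pressure and for which RefSeq (GRCm38.p6) gave a start site in a window free of annotated exons: the 250 bases before the start of Gja1 (chr10:56377050-56377299, plus strand), Icam1 (chr9:21015690-21015939, plus strand) and Tjp1 (chr7:65371245-65371494, minus strand). Capitals mark matches on either strand to the TATA box (TATAAA), the AP-1 site (TGANTCA), the GC box (GGGCGG), the CCAAT box, the TEAD site (GGAATG), the kB consensus or the kB form known from the ICAM1 promoter (GGAAATTCC).
Gja1: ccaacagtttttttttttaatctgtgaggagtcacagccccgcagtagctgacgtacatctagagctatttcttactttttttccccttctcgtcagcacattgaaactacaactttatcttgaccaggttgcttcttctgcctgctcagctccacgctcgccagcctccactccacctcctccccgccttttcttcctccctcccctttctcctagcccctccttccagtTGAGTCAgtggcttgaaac
Icam1: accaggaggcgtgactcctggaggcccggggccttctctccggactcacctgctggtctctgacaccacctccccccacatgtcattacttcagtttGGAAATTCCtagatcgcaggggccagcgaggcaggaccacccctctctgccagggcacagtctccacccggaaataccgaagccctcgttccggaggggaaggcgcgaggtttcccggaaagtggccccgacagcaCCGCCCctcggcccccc
Tjp1: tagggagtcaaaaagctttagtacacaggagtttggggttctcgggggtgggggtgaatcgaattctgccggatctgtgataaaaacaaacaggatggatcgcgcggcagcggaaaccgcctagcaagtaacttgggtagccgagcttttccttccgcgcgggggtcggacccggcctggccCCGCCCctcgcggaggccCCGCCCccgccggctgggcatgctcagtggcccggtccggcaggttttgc
Gja1 held 1 AP-1 match, beginning 19 bases before the start, and 6.75% of all 32851 windows of this length held at least 1. Icam1 held 1 match to GGAAATTCC, beginning 153 bases before the start, a string searched after the window was seen and present in 0.286% of windows, and 1 GC box. Tjp1 held 2 GC boxes, which 32.7% of windows have at least once. The Tjp1 window lies within the annotated span of the gene, whose 5' end is at chr7:65527781, and the bases before that end were not examined. The TATA box (12.4% of windows), the CCAAT box (33.8%), the TEAD site (12.6%) and the kB consensus (7.25%) had no match in these 3 windows. A match is a description of the letters and not a site shown to be used.

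**Figure D1:**
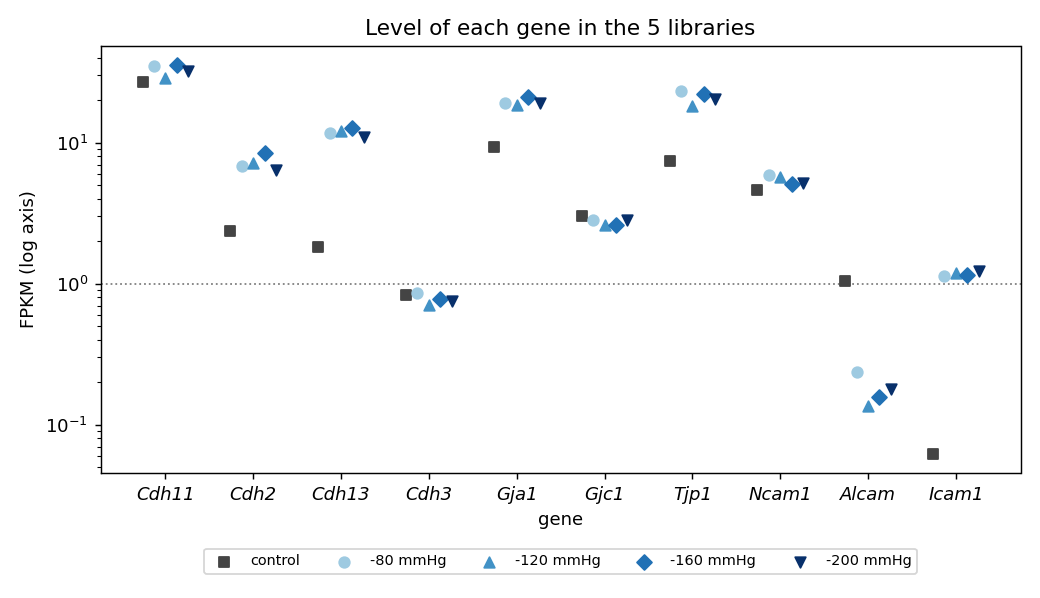
FPKM of the 10 genes (log axis) in the 5 libraries, 1 point per library, with the control as a square and the dotted line at 1 FPKM. The control lies below all 4 pressure libraries for Cdh11, Cdh2, Cdh13, Gja1, Tjp1, Ncam1 and Icam1, above them for Gjc1 and Alcam, and among them for Cdh3.

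Among the cadherins, Cdh13 and Cdh2 rose at all 4 pressures, Cdh11 stayed under the size rule and Cdh3 was low in every library. Of the 10 members 7 were measured, and of these 3 (Cdh2, Cdh13 and Tjp1) rose and 0 fell at all 4 pressures, beside 6.49% and 4.46% of 12113 measured genes. Among the 5577 measured genes with 4000 to 12000 nt of exon, the shares were 6.67% and 2.60%. With the trimmed mean of log2 differences set to 0, which lowers the median of all measured genes from 0.15 to 0.00, the same 3 members rose, beside 4.42% and 5.94% of measured genes. Counted at each pressure alone, 3, 3, 4 and 3 members rose at -80, -120, -160 and -200 mmHg, beside 10.7%, 8.85%, 9.59% and 9.10% of measured genes, with Gja1 the added member at -160 mmHg. At the same pressures 0 members fell, beside 6.89%, 6.45%, 6.03% and 6.38% of measured genes. The interval of the read ratio lay above 1 at all 4 pressures in the measured members Cdh2, Cdh11, Cdh13, Gja1 and Tjp1, beside 40.0% of 11911 measured genes with recovered reads. It lay below 1 at all 4 pressures in no measured member, beside 24.8%. Among the members under the expression limit, it lay above 1 in Icam1 and below 1 in Alcam. The control lay outside the range of the pressure libraries in all 7 measured members, beside 84.9% of measured genes, and also in Alcam and Icam1. Cdh3, Alcam and Icam1 had means under 1 FPKM and are given by their reads. Since the members were chosen with earlier results of these data known, these counts are descriptions.

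Cdh11 (ENSMUSG00000031673.6, GRCm38 chr8:102632095-102785642, minus strand) had the highest level of the 10 in every library. It stood at 26.8 FPKM in the control library and at 35.1, 28.9, 35.4 and 32.2 FPKM at -80, -120, -160 and -200 mmHg. The control was lowest and -120 mmHg close above it. The read ratio to the control was 1.08 (95% interval 1.03 to 1.13) at -120 mmHg and 1.32 (1.27 to 1.37) at -160 mmHg. The log2 differences of 0.11 to 0.39 straddled the median of all measured genes (0.14 to 0.16), and with the exon length trend removed they were -0.20 to 0.03.

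Cdh13 (T-cadherin, ENSMUSG00000031841.19, chr8:118283733-119324921, plus strand), a receptor for adiponectin, had the largest log2 difference of the members. Its level was 1.83 FPKM in the control library and 11.8, 12.2, 12.7 and 11.004 FPKM at -80, -120, -160 and -200 mmHg. All 4 pressure libraries were far above the control and close to each other. The read ratios were 6.02 (5.39 to 6.73) at -200 mmHg to 6.97 (6.25 to 7.78) at -160 mmHg, and the log2 differences were 2.09 to 2.28. Cdh13 passed the size rule at all 4 pressures also with the length trend removed (1.77 to 1.92), with a pseudocount of 5 (1.23 to 1.38) and under each other scaling tried. Its ligand gene Adipoq was listed at 0 in all 5 libraries.

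Cdh2 (N-cadherin, ENSMUSG00000024304.14, chromosome 18) stood at 2.35 FPKM in the control library and at 6.83, 7.15, 8.51 and 6.39 FPKM at -80, -120, -160 and -200 mmHg. The pressure libraries did not overlap the control, and -160 mmHg was the highest of them. The read ratio was 2.72 (2.40 to 3.08) at -200 mmHg and 3.62 (3.21 to 4.09) at -160 mmHg, with log2 differences of 1.14 to 1.505. With the length trend removed Cdh2 passed the size rule only at -160 mmHg (1.12), with 0.78 to 0.94 at the other 3 pressures, and under quantile normalization it missed the rule at -200 mmHg (0.96). With a pseudocount of 5 it passed at 0 pressures (0.63 to 0.88).

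Cdh3 (P-cadherin, ENSMUSG00000061048.8, chr8:106510891-106557297, plus strand), a classical cadherin better known from epithelia, had 67 reads in the control and 63, 51, 58 and 60 at -80, -120, -160 and -200 mmHg. These are 0.831, 0.864, 0.701, 0.778 and 0.758 FPKM in the same order. The control lay within the range of the pressures. The read ratios of 0.844 to 1.04 had intervals that together spanned 0.574 to 1.49, so a smaller difference was not detectable at this depth. With the length trend removed the log2 differences were -0.31 to -0.15.

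Cdh11, Cdh13 and Cdh3 lie on mouse chromosome 8, yet their differences from the control were unlike. Of the summed FPKM of all 20 cadherin genes searched, Cdh11 took 72.6% in the control and 50.9% to 57.1% under pressure. Cdh13 took 4.96% in the control and 19.0% to 21.5% under pressure, and Cdh2 6.37% and 10.97% to 13.2%. The sum itself was 36.9 FPKM in the control library and 56.5 to 64.3 FPKM in the pressure libraries. In bulk RNA, a change in the number of cells of a type and in the RNA per cell cannot be told apart.

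**Figure D2:**
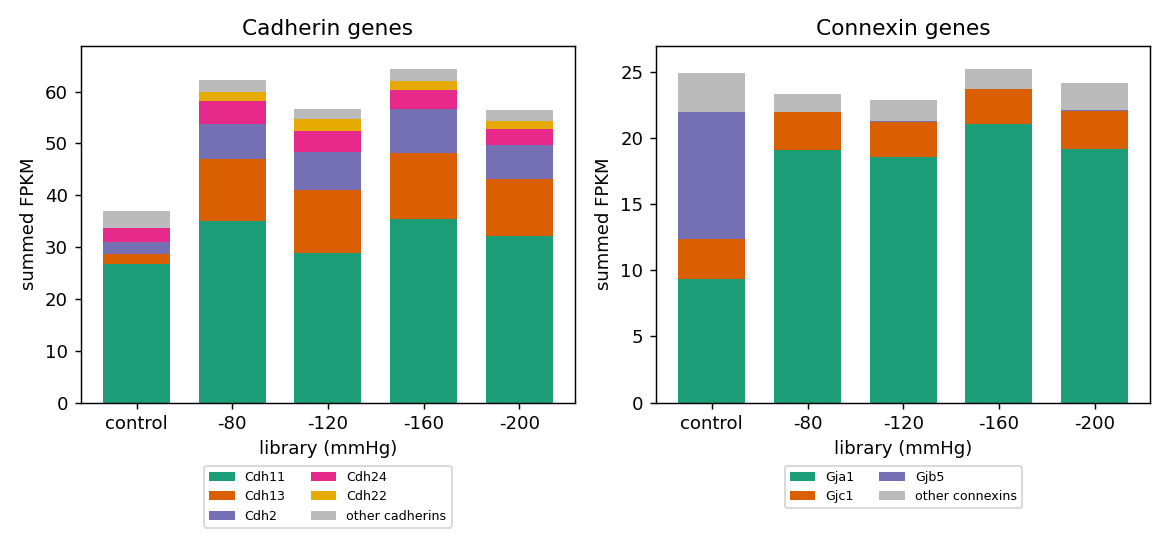
Stacked FPKM of the cadherin genes (left) and the connexin genes (right) in each library, with the other 15 cadherin genes and the other 17 connexin genes summed in grey. The cadherin sum is 36.9 FPKM in the control library and 56.5 to 64.3 FPKM in the pressure libraries, whereas the connexin sum is 22.8 to 25.2 FPKM in all 5 libraries while Gjb5 is visible only in the control.

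Of the other 16 cadherins, a list that like those below was chosen with earlier results of these data known, 2 were measured, and 6 were listed at 0 in all libraries. Cdh22 rose at all 4 pressures, from 0.0587 FPKM and 4 reads in the control to between 1.38 and 2.26 FPKM (92 to 139 reads). Its read ratio was 23.4 (8.85 to 87.8) at -200 mmHg and 38.5 (14.7 to 143) at -120 mmHg. Cdh24, the most abundant of the list, passed the rule at no pressure (2.73 FPKM in the control, 3.27 to 4.43 FPKM in the pressure libraries). The epithelial Cdh1 had 0 FPKM throughout, and the endothelial Cdh5 had at most 2 reads in a pressure library.

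The catenins and linkers that tie cadherins to actin were for the most part close to the control. Of 10 listed 7 were measured, 1 rose at all 4 pressures, 0 fell and 5 never passed the rule, with a list median of 0.08 to 0.17. Vcl (vinculin), an actin linker of junctions and focal adhesions, rose from 3.93 FPKM to between 9.94 and 14.3 FPKM. Ctnnb1 (beta-catenin), which binds cadherin tails and also acts in Wnt signalling, was the most abundant, at 81.3 FPKM in the control library and 93.6 to 108 FPKM in the pressure libraries. Ctnna1 (alpha-catenin) stood at 46.8 FPKM and 43.2 to 47.1 FPKM, and Jup (plakoglobin) at 2.96 FPKM and 3.09 to 3.46 FPKM. Vcl has 8191 nt of exon, a length class in which the median of all measured genes was 0.33 to 0.43.

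Connexin 43 had the highest FPKM of the connexins under pressure, but in the control library Gjb5 stood beside it on that scale. Gja1 (ENSMUSG00000050953.10, chr10:56377330-56402513, plus strand) stood at 9.33 FPKM in the control library and at 19.1, 18.6, 21.1 and 19.2 FPKM at -80, -120, -160 and -200 mmHg. The control was below all pressure libraries, of which -160 mmHg was the highest. The read ratio to the control was 1.99 (1.88 to 2.11) at -120 mmHg and 2.26 (2.13 to 2.39) at -160 mmHg. On the log2 scale the differences of 0.96, 0.92, 1.10 and 0.96 lay close to the size rule, which only -160 mmHg passed. With the length trend removed they were 0.46 to 0.66, and with the trimmed mean of log2 differences set to 0 they were 0.78 to 0.94, both past the rule at 0 pressures. With a pseudocount of 5 (0.72 to 0.86) Gja1 also passed at 0. It passed at 3 with a pseudocount of 0.1 (0.99 to 1.17) and at all 4 with a 1.5-fold rule.

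Gjc1 (ENSMUSG00000034520.14, chr11:102799579-102819700, minus strand), which forms channels of low conductance, stood at 3.02 FPKM in the control library and at 2.85, 2.62, 2.60 and 2.83 FPKM at -80, -120, -160 and -200 mmHg. The control was the highest library by a small margin. The intervals of all 4 read ratios held 1, from 0.860 (0.717 to 1.03) at -160 mmHg to 0.943 (0.789 to 1.13) at -80 mmHg. The log2 differences were -0.16 to -0.06, and with the length trend removed -0.38 to -0.26.

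Of 21 other connexins and pannexins 1 was measured, Gjb5, an epidermal and placental connexin, and it fell at all 4 pressures. It stood at 9.60 FPKM (304 reads) in the control, was listed at 0 at -80 mmHg, and had 1, 1 and 2 reads at -120, -160 and -200 mmHg. The read ratio at -80 mmHg was 0 (0 to 0.0135), and with a floor of 3 reads in place of 0 it was 91.6-fold lower. At -200 mmHg the read ratio was 0.00670 (0.000808 to 0.0244). Gjb5 lies at chr4:127354809-127358181 on the minus strand.

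The sum over all 20 connexin genes, examined after the values were seen, was 24.9 FPKM in the control library and 23.3, 22.8, 25.2 and 24.1 FPKM at -80, -120, -160 and -200 mmHg. The control lay within the range of the pressures. The share of Gja1 in this sum was 37.4% in the control and 79.5% to 83.7% under pressure, and that of Gjb5 was 38.5% in the control and at most 0.267% under pressure. The share of Gjc1 was 12.1% and 10.3% to 12.2%. The sum and shares depend on the annotated exon length, 10257 nt for Gja1 and 1721 nt for Gjb5. In reads, the control library held 1761 for Gja1 and 304 for Gjb5.

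Tjp1 (ENSMUSG00000030516.14, chr7:65296165-65527781, minus strand), the scaffold that binds the tail of connexin 43, stood at 7.41 FPKM in the control library and at 23.1, 18.1, 22.3 and 20.4 FPKM at -80, -120, -160 and -200 mmHg. It rose at every pressure, and -120 mmHg was the lowest of the pressure libraries. The read ratio was 2.44 (2.27 to 2.63) at -120 mmHg and 3.12 (2.91 to 3.35) at -80 mmHg, with log2 differences of 1.18 to 1.52. With the length trend removed the -120 mmHg value (0.86) missed the rule and the other 3 (1.02 to 1.13) passed it, and with a pseudocount of 5 the -120 mmHg value (0.90) also missed it. In FPKM, Gja1 stood above Tjp1 in the control, whereas at -80, -160 and -200 mmHg Tjp1 stood above Gja1. At -120 mmHg Tjp1 lay at 18.1 FPKM and Gja1 at 18.6 FPKM. This order depends on the exon lengths of 7811 nt for Tjp1 and 10257 nt for Gja1, since Gja1 had more reads in every library.

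**Figure D3:**
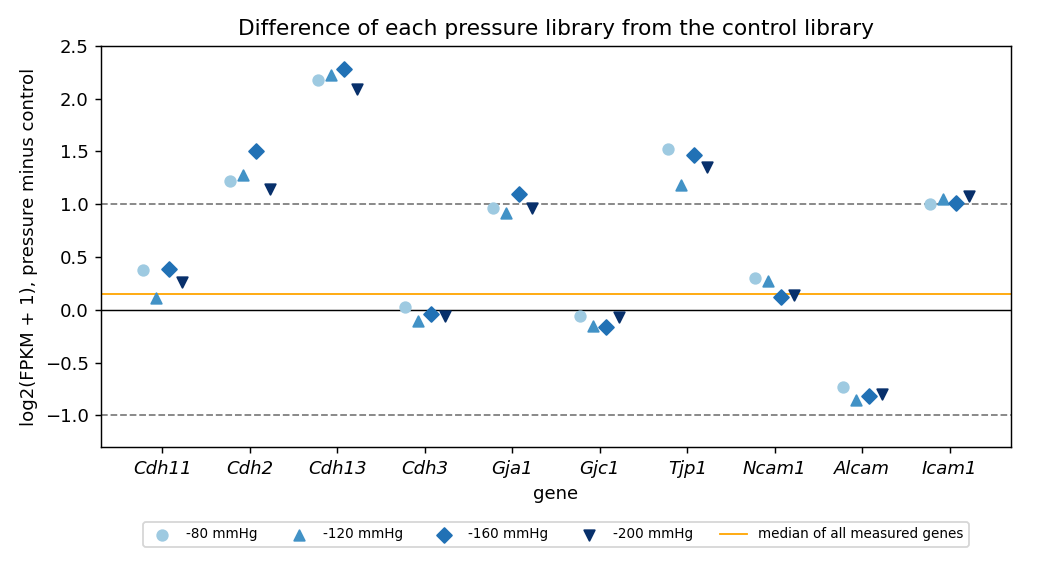
Difference in log2(FPKM + 1) between each pressure library and the control for the 10 genes, with dashed lines at the size rule and an orange line at the median of all measured genes. Cdh13 lies at 2.09 to 2.28, Tjp1 and Cdh2 at 1.14 to 1.52, and Gja1 and Icam1 near the rule, while Alcam lies at -0.85 to -0.73.

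Of 27 other tight junction genes 7 were measured, 2 rose at all 4 pressures (Cldn2 and Cgnl1), 0 fell and 3 never passed the rule, with a list median of 0.69 to 0.98. Cldn2 (claudin 2), a claudin that forms paracellular pores, rose from 0.0490 FPKM and 3 reads to between 1.998 and 2.30 FPKM (113 to 138 reads), a read ratio of 40.7 (13.6 to 200) to 46.9 (15.7 to 230). Cgnl1 (paracingulin), the most abundant of the list, rose from 14.6 FPKM to between 31.6 and 35.1 FPKM. Of 13 desmosome genes 3 were measured and 0 rose or fell at all 4 pressures, and the most abundant, Pkp4, stood at 5.02 FPKM in the control library and 4.28 to 5.02 FPKM in the pressure libraries.

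The immunoglobulin-type members differed from one another in direction. Ncam1 (ENSMUSG00000039542.16, chr9:49502136-49798925, minus strand), the neural cell adhesion molecule that also occurs on stromal cells, stood at 4.62 FPKM in the control library and at 5.92, 5.76, 5.12 and 5.21 FPKM at -80, -120, -160 and -200 mmHg. The control was lowest, with -160 mmHg close above it. The read ratio was 1.28 (1.16 to 1.41) at -80 mmHg and 1.11 (0.9996 to 1.23) at -160 mmHg. The log2 differences of 0.12 to 0.30 turned to between -0.27 and -0.10 with the length trend removed. The antisense gene Gm11149, which shares exon bases with Ncam1, had at most 4 reads in a library. The sialyltransferase genes St8sia2 and St8sia4, which add polysialic acid to NCAM, stood at or under 0.124 FPKM in all libraries, and the NCAM partner Fgfr1 at 54.6 FPKM in the control library and 51.4 to 58.1 FPKM in the pressure libraries.

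Alcam (CD166, ENSMUSG00000022636.13, chr16:52248996-52454074, minus strand), used as a surface marker of mesenchymal stromal cells, had 137 reads in the control and 28, 16, 19 and 23 at -80, -120, -160 and -200 mmHg. The levels were 1.05, 0.236, 0.135, 0.157 and 0.179 FPKM in the same order. All 4 pressure libraries were below the control. The read ratio was 0.129 (0.0720 to 0.218) at -120 mmHg and 0.226 (0.145 to 0.341) at -80 mmHg, while on the log2(FPKM + 1) scale the difference was -0.85 to -0.73 because the pseudocount is as large as the control level. Alcam passed the size rule downward at 0 pressures on that scale, but at all 4 with a pseudocount of 0.1 (-2.28 to -1.77) and with the length trend removed (-1.15 to -1.06), although it is under the expression limit and so is not in the counts of members. Its ligand gene Cd6 reached at most 0.00754 FPKM.

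Icam1 (ENSMUSG00000037405.8, chr9:21015985-21028817, plus strand), a ligand of leukocyte integrins that inflammatory signals are known to raise, had 5 reads in the control and 82, 87, 85 and 98 at -80, -120, -160 and -200 mmHg. These are 0.0623, 1.13, 1.20, 1.15 and 1.24 FPKM in the same order. The pressure libraries were all above the control and close to each other. The read ratio was 18.1 (7.46 to 57.3) at -80 mmHg and 19.97 (8.27 to 62.9) at -200 mmHg, the widest intervals among the members because of the 5 control reads. The mean of 0.957 FPKM lay just under the expression limit, and with no limit Icam1 counted as higher at all 4 pressures, by a narrow margin (1.004 to 1.08). It passed the rule at 0 pressures with the trimmed mean set to 0 (0.85 to 0.94), with the length trend removed (0.80 to 0.90) and with a pseudocount of 5 (0.28 to 0.30), and at 2 under quantile normalization (0.92 to 1.01). The antisense gene Gm47079 shares exon bases with Icam1 and had at most 1 read in a library. The macrophage markers Cd68 (2.29 FPKM in the control, 5.70 to 7.57 FPKM in the pressure libraries) and Cd14 (23.6 FPKM and 50.3 to 55.6 FPKM) moved the same way. Of the 8 macrophage markers read, 5 stayed under 0.1 FPKM in all libraries. The part of macrophage markers in the Icam1 values was not tested. Of the genes for integrin partners of ICAM-1, Itgam was listed at 0, Itgal reached at most 0.101 FPKM, and Itgb2 stood at 4.36 FPKM in the control library and 4.91 to 6.02 FPKM in the pressure libraries.

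Of 22 other immunoglobulin-type adhesion genes 9 were measured, 1 rose at all 4 pressures, 0 fell and 5 never passed the rule, with a list median of 0.22 to 0.38. Cadm4, a nectin-like adhesion gene, rose from 0.654 FPKM to between 2.46 and 3.96 FPKM. Cd47, an integrin-associated protein and the most abundant of the list, stood at 42.8 FPKM in the control library and 35.0 to 36.3 FPKM in the pressure libraries. Vcam1, named outside the rule for comparison with Icam1, stood at 17.8 FPKM in the control library and 8.35 to 9.58 FPKM in the pressure libraries. It fell at 1 pressure, -120 mmHg. Its read ratio of 0.469 (0.438 to 0.501) at -120 mmHg lay on the other side of 1 from that of Icam1. Among 9 partner and ligand genes of the members 3 were measured, and Ccn3 (NOV), a matricellular protein that binds connexin 43, fell from 102 FPKM to between 20.4 and 22.9 FPKM.

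**Figure D4:**
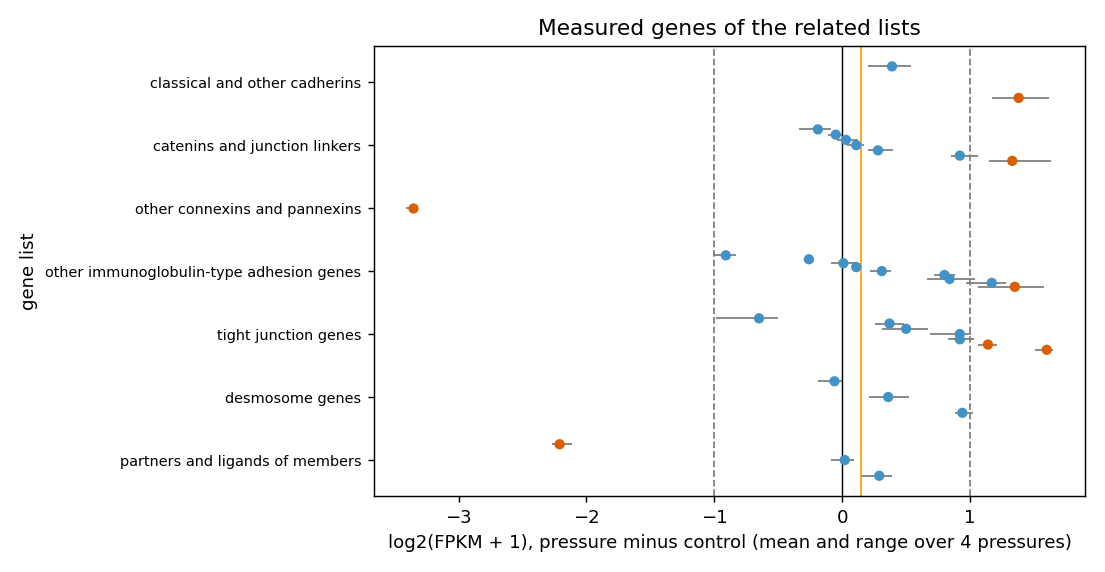
Mean difference in log2(FPKM + 1) from the control over the 4 pressures for the 32 measured genes of the 7 related lists, with bars for the lowest and highest pressure and orange points for genes past the size rule at all 4. Orange points are 5 increases (Cdh22, Vcl, Cadm4, Cgnl1 and Cldn2) and 2 decreases (Gjb5 and Ccn3).

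Over all 118 related genes 32 were measured, 5 rose and 2 fell at all 4 pressures and 18 never passed the rule, beside 6.49% and 4.46% of all measured genes that rose and fell. With the trimmed mean set to 0 the counts were 3 and 2 of 32, beside 4.42% and 5.94%. The counts of the single lists are too small to be read against these shares. The median log2 difference of the 32 was 0.34, 0.35, 0.30 and 0.38 at -80, -120, -160 and -200 mmHg, beside 0.16, 0.14, 0.15 and 0.14 for all measured genes. For the 7 measured members the same medians were 0.96, 0.92, 1.10 and 0.96. Measured genes with 4000 to 12000 nt of exon had medians of 0.29, 0.24, 0.27 and 0.24. All 7 measured members lie in that length range. Many of the 32 do too, but some, such as Gjb5 with 1721 nt, do not.

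**Figure D5:**
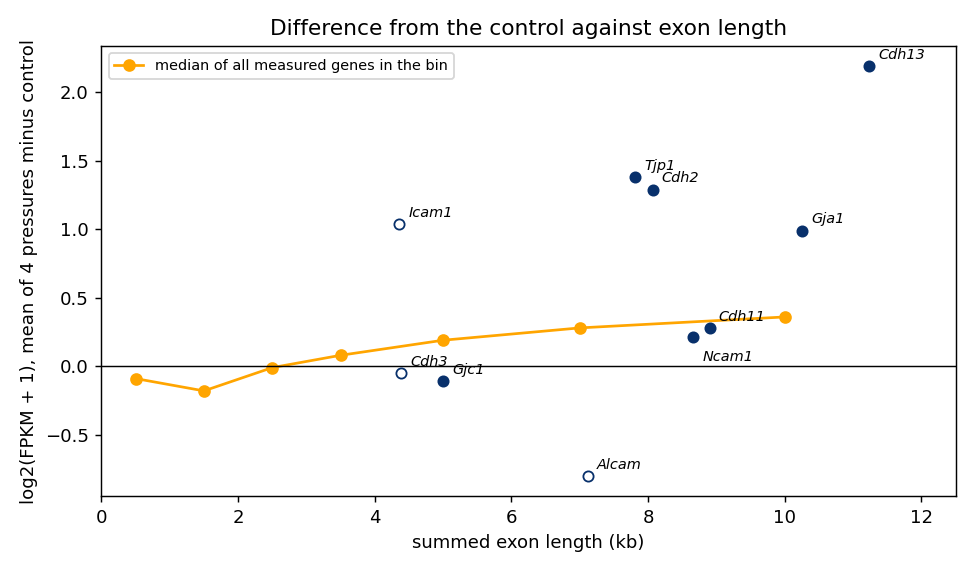
Mean difference in log2(FPKM + 1) between the 4 pressures and the control against summed exon length for the 10 genes (open circles are under the expression limit), with the median of all measured genes in each length bin in orange. Cdh11, Ncam1, Gjc1, Cdh3 and Alcam lie at or under the orange line, which reaches 0.36 in the longest bin, while Cdh13, Tjp1, Cdh2, Gja1 and Icam1 lie above it.

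Between the pressures the members differed little. No member passed the size rule between any 2 of the 4 pressures, beside 2.26% of measured genes, and with a 1.5-fold rule the count was also 0. The largest log2 difference was 0.37, for Cdh2 between -160 and -200 mmHg, followed by 0.34 for Tjp1 between -80 and -120 mmHg. No member ran in 1 direction from -80 to -200 mmHg. The share of all measured genes that did so was not counted, so this is a description only.

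Counting error was smaller than some of these differences. At least 1 of the 6 read ratios between pressures had an interval without 1 in 6 members (Cdh2, Cdh11, Cdh13, Gja1, Ncam1 and Tjp1), as in 74.3% of 11911 measured genes with recovered reads. Cdh11 and Tjp1 had 5 such pairs each and shared a low value at -120 mmHg, where the ratio to -80 mmHg was 0.824 (0.791 to 0.858) for Cdh11 and 0.783 (0.742 to 0.827) for Tjp1. The -120 mmHg library was also lower in long genes as a whole, with a median of -0.06 against the mean of the other pressures for genes with 8000 to 12000 nt of exon and 0.03 for those with 1000 to 2000 nt. Cdh2, Cdh13 and Gja1 were highest at -160 mmHg, and the ratios of -200 to -160 mmHg were 0.750 (0.688 to 0.818), 0.864 (0.815 to 0.915) and 0.909 (0.868 to 0.952). Cdh3, Gjc1, Alcam and Icam1 had 0 such pairs, and for Alcam, with 16 to 28 reads, the ratio of -120 to -80 mmHg was 0.573 (0.289 to 1.10).

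The genes most like Gja1 over the 5 libraries, by the root mean square difference of log2(FPKM + 1) after each gene was centred on its mean, were Hnrnph2 (0.019), Cyld (0.021) and Spast (0.021). Hnrnph2 stood at 25.4 FPKM in the control library and 49.9 to 56.0 FPKM in the pressure libraries. Those most like Cdh11 were Son (0.013), Setdb2 (0.018) and Prkar2a (0.024), and Son shared the low value at -120 mmHg (10.7 FPKM, beside 13.5, 13.4 and 12.3 FPKM at -80, -160 and -200 mmHg). Of 10681 candidate genes 505 lay within 0.1 of Gja1 and 855 within 0.1 of Cdh11, so these likenesses are shared by many genes.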

How the data were processed

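The values are FPKM as deposited by the authors in a single table. The tools named in the submitters' processing notes are HISAT2, SAMtools and featureCounts (1.5.0-p3). Those notes name the rat build rn6, but the gene IDs are mouse Ensembl IDs. The strand setting of the counting is, in the sources used here, not given. Symbols, coordinates and exon lengths came from GENCODE M21 (GRCm38): 55141 of 55401 IDs matched in any version. FPKM multiplied by exon length gave whole multiples of 1 step per library in 98.8% of genes (tolerance 0.001 reads), which gave reads and library totals. No count model was fitted, and no model pooled the pressures.

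Differences were taken on log2(FPKM + 1) over the 12113 genes that averaged 1 FPKM or more. The members, lists and naming rule were chosen with earlier results of these data known. All 10 members are named, and of each list up to 4 genes past the size rule at all 4 pressures and the most abundant gene. Some genes of the lists enter the counts and sums but are not reported here by name. Any other gene with values was chosen after its values were seen, apart from the marker genes and those picked by likeness to Gja1 or Cdh11. Lists of stromal, leukocyte, macrophage, endothelial, epithelial, neural and muscle markers were also read: apart from the stromal and macrophage lists, each had 0 measured genes. Alternatives were pseudocounts of 0.1 and 5, no limit or a mean of 5 FPKM, a trimmed mean (30% at each end), upper quartile and quantile scaling, a 1.5-fold rule and, added after the data were seen, removal of the exon length trend in 50 bins. Functions were tested on simulated reads. Promoter sequences are from RefSeq, whose table held 4 of 10 members, and the Alcam window was left out because it overlaps an exon. Software was Python 3.11.15 with scipy 1.17.1, numpy 2.4.6, matplotlib 3.10.9 and pandas 2.3.3.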

Additional observations from a re-analysis of the deposited data

How the results depend on the processing

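Shares of all genes tested at the same setting are in brackets. The count of 3 members higher at all 4 pressures (6.49%) became 1 (Cdh13) with a pseudocount of 5 (1.75%). It was also 1 with the exon length trend removed (4.77%), and ran from 2 to 4 under the other 7 alternatives (2.86% to 17.8%). The count of 5 related genes higher (6.49%) became 10 with a pseudocount of 0.1 (11.4%) and 0 with a pseudocount of 5 (1.75%). It became 2 at a mean of 5 FPKM (6.34%) and 12 with a 1.5-fold rule (17.8%). It was 3 with the trimmed mean (4.42%), under quantile normalization (4.80%) and with the length trend removed (4.77%). The count of 2 related genes lower (4.46%) became 1 at a mean of 5 FPKM (4.70%), where fewer genes are tested. It became 3 with no limit (2.41%), with a 1.5-fold rule (10.4%) and with the length trend removed (5.04%). A lower pseudocount enlarges each log2 difference, a higher one shrinks it, and a 1.5-fold rule is easier to pass. The cause of the changes under the other settings was not tested. Among the members over each expression limit, 0 were lower at all 4 pressures and 0 differed between pressures under the 9 alternatives. Alcam, which the limit of 1 FPKM leaves out, was past the rule downward at all 4 with a pseudocount of 0.1, a 1.5-fold rule and the length trend removed. The mean difference of Cdh11 ran from -0.07 to 0.33 and that of Ncam1 from -0.19 to 0.24, and the other 8 members kept their sign. Depth limits Cdh3, Alcam and Icam1, each with at most 137 reads in a library. No paired analysis was possible because each condition has 1 library.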
